A study of Mus musculus with 12 samples.

Results

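The genes described here are 5 Cyp4f enzymes (Cyp4f13, Cyp4f14, Cyp4f15, Cyp4f16 and Cyp4f17) and 5 phospholipases A2 (Pla2g3, Pla2g4a, Pla2g6, Pla2g7 and Pla2g16), 10 of the 53465 genes counted in glia of the mouse spinal cord. They were taken by name, with their Ensembl gene identifiers matched to the GRCm38 annotation, and were chosen because their levels were already known to differ between these cell fractions. Their levels, fold changes and calls are therefore given as descriptions, without p-values. The libraries came from C57BL/6 mice at postnatal day 7 of the genotype Aldh1L1-GFP/Olig2-tdTomato, that is with a green reporter of Aldh1L1 and a red reporter of Olig2, and from the brachial and thoracic spinal cord only. After papain digestion, flow sorting gave cells with eGFP alone, with tdTomato alone and with both (eGFP/tdTomato), and 4 biological replicates of each, 1, 2, 3 and 5, were sequenced. All 3 fractions thus share strain, age, tissue and both transgenes and were separated by the reporter signal. Their markers of other cell types and their reads outside genes also differed, as given below. Aldh1L1 marks astrocytes, whereas Olig2 is used by the oligodendrocyte lineage and by a part of the spinal cord astrocytes.

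Phospholipases A2 cut the sn-2 fatty acid from membrane phospholipids, which frees arachidonic acid and leaves a lysophospholipid. Freed arachidonic acid feeds the cyclooxygenase, lipoxygenase and cytochrome P450 routes, and lysophospholipid acyltransferases put it back into membranes. Enzymes of the Cyp4f family are haem-containing monooxygenases of the endoplasmic reticulum that hydroxylate fatty acids and eicosanoids at the far (omega) end of the chain. This reaction yields hydroxyeicosatetraenoic acids and starts the breakdown of leukotriene B4.

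The sorted fractions carried the markers of their labels. The summed level of 10 astrocyte markers was 33760 to 49760 CPM (counts per 1000000 gene counts, scaled between libraries with TMM factors) in the eGFP libraries and 45110 to 53110 in the eGFP/tdTomato libraries. In the tdTomato libraries it was 243.8 to 346.5 CPM. The 10 myelinating oligodendrocyte markers summed to 110800 to 163800 CPM in tdTomato, 1635 to 3298 in eGFP/tdTomato and 453.2 to 1352 in eGFP libraries. The 8 progenitor markers summed to 2758 to 4769, 581.7 to 1223 and 173.4 to 433.3 CPM in the same order. Microglial markers (12 genes) reached 1130 CPM in eGFP replicate 5 and stayed at 94.8 to 255.8 in the other eGFP libraries and at or below 48.34 elsewhere. Ependymal (8 genes) and mural and fibroblast markers (10 genes) were highest in the eGFP fraction, at 218.2 to 471.4 and 794.2 to 2115 CPM, against 11.76 to 21.63 and 359.8 to 571.6 in the eGFP/tdTomato fraction. Neuronal markers (10 genes) were highest in the tdTomato fraction, at 449.8 to 675.6 CPM, against 60.7 to 84.0 in eGFP and 38.9 to 64.1 in eGFP/tdTomato. The part of neuronal RNA in the tdTomato levels of other genes was not tested. No marker was at 0 in all 4 libraries of a fraction. Gene counts per library were 12564767 to 36505583, and eGFP replicate 1 stood apart with the fewest gene counts and 57.1% of its reads outside annotated genes, against 21.2 to 42.5% in the other 11 libraries.

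All 5 Cyp4f members lie in 1 cluster on chromosome 17 (GRCm38), within 441.4 kb that also hold Cyp4f37, Cyp4f40 and 4 zinc finger genes. Cyp4f17 (chr17:32506050-32530143), Cyp4f16 (chr17:32536558-32551798) and Cyp4f15 (chr17:32685627-32703352) run on the plus strand, and Cyp4f14 (chr17:32905070-32917342) and Cyp4f13 (chr17:32924688-32947402) on the minus strand at the other end. Their coding sequences are 76.2% (Cyp4f13 and Cyp4f15) to 84.3% (Cyp4f16 and Cyp4f17) identical, so it matters whether short reads can tell them apart. The stretch around the codon of the cysteine that holds the haem iron, conserved in all P450 enzymes, shows how close they are. It is printed for all 5 members from the GENCODE M21 coding sequences, 57 bases with the cysteine codon at bases 28 to 30 and capitals at positions that are not the same in all 5.
Cyp4f13: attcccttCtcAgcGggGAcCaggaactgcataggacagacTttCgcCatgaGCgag
Cyp4f14: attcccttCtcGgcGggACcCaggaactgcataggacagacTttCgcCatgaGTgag
Cyp4f15: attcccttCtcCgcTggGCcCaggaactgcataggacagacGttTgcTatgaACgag
Cyp4f16: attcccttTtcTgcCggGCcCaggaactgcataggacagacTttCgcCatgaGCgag
Cyp4f17: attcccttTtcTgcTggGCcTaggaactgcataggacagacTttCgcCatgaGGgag
Of these 57 positions, 46 are the same in the 5 genes, and the central run holds no difference. Over the whole transcript the genes are easier to separate. For each gene the protein-coding transcript with the longest open reading frame was used. In those of Cyp4f13, Cyp4f14, Cyp4f15 and Cyp4f17, 2.45 to 3.25% of all windows of 50 bases also occur in another gene, and 0 to 0.07% of windows of 100 bases. Cyp4f16 is the exception, with 26.54% of its 50-base and 9.8% of its 100-base windows found elsewhere, chiefly in Cyp4f37, so that its counts are less certain. Of the phospholipases, Pla2g7 shares 4.54% of its 50-base windows with 1700071M16Rik, an overlapping gene on the opposite strand, and the other 4 share none.

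Upstream sequence was available from RefSeq (GRCm38.p6) for 8 of the 10 members, Pla2g16 under its newer name Plaat3, and not for Cyp4f17 and Pla2g3. The windows of the 4 Cyp4f members are shown because 3 of these genes were higher in both eGFP-carrying fractions than in tdTomato while the fractions of Cyp4f16 overlapped. Each is 120 bases that end directly before the annotated gene start, or 1 base short of it for Cyp4f16, in the direction of transcription, and capitals mark ATTGG, which is the CCAAT box read on the other strand. All 4 lie on chromosome 17, written chr17.0 in the lines below.
Cyp4f13 (chr17.0:32947403-32947522, minus strand): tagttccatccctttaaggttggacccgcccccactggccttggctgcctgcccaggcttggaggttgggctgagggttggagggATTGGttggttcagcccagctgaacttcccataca
Cyp4f14 (chr17.0:32917343-32917462, minus strand): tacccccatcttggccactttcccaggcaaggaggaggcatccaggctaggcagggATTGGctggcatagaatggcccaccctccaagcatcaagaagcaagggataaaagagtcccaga
Cyp4f15 (chr17.0:32685507-32685626, plus strand): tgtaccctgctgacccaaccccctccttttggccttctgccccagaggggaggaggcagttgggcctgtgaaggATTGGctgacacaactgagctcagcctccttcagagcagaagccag
Cyp4f16 (chr17.0:32536437-32536556, plus strand): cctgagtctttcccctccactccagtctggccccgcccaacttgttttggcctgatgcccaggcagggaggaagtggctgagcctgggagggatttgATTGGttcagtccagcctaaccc
Each of the 4 holds 1 match of the CCAAT box (letters CCAAT, both strands) in its 250 bases, starting 76, 64, 78 and 23 bases before the RefSeq start in the order printed. The same letters occur in 33.8% of all 32851 windows of 250 bases, and Cyp4f16 holds them too, so the match does not separate Cyp4f16 from the other 3. Pla2g6 has 2 matches, at 70 and 19 bases before its start, and Pla2g4a, Pla2g7 and Pla2g16 have none. The TATA box (TATAAA), GC box (GGGCGG), E-box (CAGCTG) and SOX core (ACAAAG or ACAATG) were searched as well. None of these matched in all 4 Cyp4f windows. The GC box matched in Cyp4f13, Cyp4f15 and Cyp4f16, the SOX core in Cyp4f13 and Cyp4f15, the E-box in Cyp4f13 and the TATA box in none. All windows held them in 32.7, 25.2, 13.0 and 12.4%, in that order.

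Among the Cyp4f enzymes, Cyp4f15 showed the largest contrast between the fractions. It hydroxylates fatty acids and leukotrienes, like its relatives. Its level in the eGFP/tdTomato libraries was 50.6, 37.7, 41.6 and 27.04 CPM for replicates 1, 2, 3 and 5, and in the eGFP libraries 4.57, 7.06, 7.45 and 4.19 CPM. The tdTomato libraries had 0.223, 0.150, 0 and 0.332 CPM, from 5, 5, 0 and 9 counts. A count of 0 in tdTomato replicate 3 allows a level of up to 0.112 CPM (3 counts, counting error only). The libraries of the 3 fractions did not overlap, in the order eGFP/tdTomato, eGFP, tdTomato. The edgeR log2 fold change was 2.75 ± 0.36 (SE) against the eGFP fraction, a 6.73-fold higher level, and 7.78 ± 0.50 against the tdTomato fraction. Between the eGFP and tdTomato fractions it was 5.03 ± 0.47. The differences from the tdTomato fraction rest on its few counts: without the 3 libraries numbered 3 they were 7.01 and 4.20, and without the 3 libraries numbered 5 they were 8.42 and 5.65.

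Cyp4f14, known in the mouse as a leukotriene B4 omega-hydroxylase, had the same order of fractions. Its mean was lower than that of Cyp4f15 in eGFP/tdTomato (15.8 against 39.2 CPM). This was not so in eGFP (6.60 against 5.82 CPM) or tdTomato (0.383 against 0.176 CPM). Its CPM were 16.8, 14.8, 16.7 and 14.7 in the eGFP/tdTomato libraries and 10.1, 4.02, 6.21 and 6.04 in the eGFP libraries. All 4 eGFP/tdTomato libraries lay above all 4 eGFP libraries, and the log2 fold change was 1.26 ± 0.47. This difference did not pass the adjusted threshold of 0.05 in edgeR, and limma-voom called it (1.35). The tdTomato libraries had 0.223, 0.241, 0.0372 and 1.03 CPM, from 5, 8, 1 and 28 counts. The log2 fold changes against the tdTomato fraction were 5.34 ± 0.59 for eGFP/tdTomato and 4.08 ± 0.57 for eGFP, and without tdTomato replicate 5, the highest tdTomato library, they were 6.5 and 5.23.

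Cyp4f13 was the Cyp4f member with the highest CPM in both eGFP-carrying fractions, and these did not separate. Its CPM were 63.4, 71.8, 64.4 and 58.7 in the eGFP libraries, 86.1, 63.3, 63.1 and 59.0 in the eGFP/tdTomato libraries and 17.5, 23.8, 26.9 and 9.08 in the tdTomato libraries. The log2 fold change between eGFP/tdTomato and eGFP was 0.07 ± 0.26, and the sets of libraries overlapped. Against the tdTomato fraction it was 1.81 ± 0.27 for eGFP/tdTomato and 1.74 ± 0.27 for eGFP, with no overlap.

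Cyp4f17, at the left end of the cluster, had the same order at a lower level. Its CPM were 7.75, 5.86, 18.3 and 9.02 in the eGFP libraries, 13.4, 7.82, 10.2 and 12.4 in the eGFP/tdTomato libraries and 2.36, 0.933, 1.04 and 2.10 in the tdTomato libraries. The eGFP and eGFP/tdTomato libraries overlapped (log2 fold change 0.10 ± 0.37). Both lay above the tdTomato libraries, by 2.68 ± 0.40 for eGFP and 2.78 ± 0.41 for eGFP/tdTomato on the log2 scale. Without the 3 libraries numbered 3, which include the highest eGFP library, the eGFP difference was 1.78.

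Cyp4f16 was the member of the cluster whose fractions all overlapped. Its CPM were 22.7, 40.5, 31.5 and 30.4 in the eGFP libraries, 38.5, 40.5, 50.8 and 36.7 in the eGFP/tdTomato libraries and 25.5, 31.0, 45.0 and 16.3 in the tdTomato libraries. The log2 fold changes were 0.41 ± 0.27 (eGFP/tdTomato against eGFP), 0.50 ± 0.27 (eGFP/tdTomato against tdTomato) and 0.09 ± 0.27 (eGFP against tdTomato). None was called. The second was called without tdTomato replicate 3, the highest tdTomato library (0.78), and with a covariate for reads outside genes (0.82). Its immediate neighbour Cyp4f17 starts 30.5 kb upstream, and the neighbouring family members Cyp4f37 and Cyp4f40 averaged at most 2.11 and 0.528 CPM in any fraction.

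**Figure D1:**
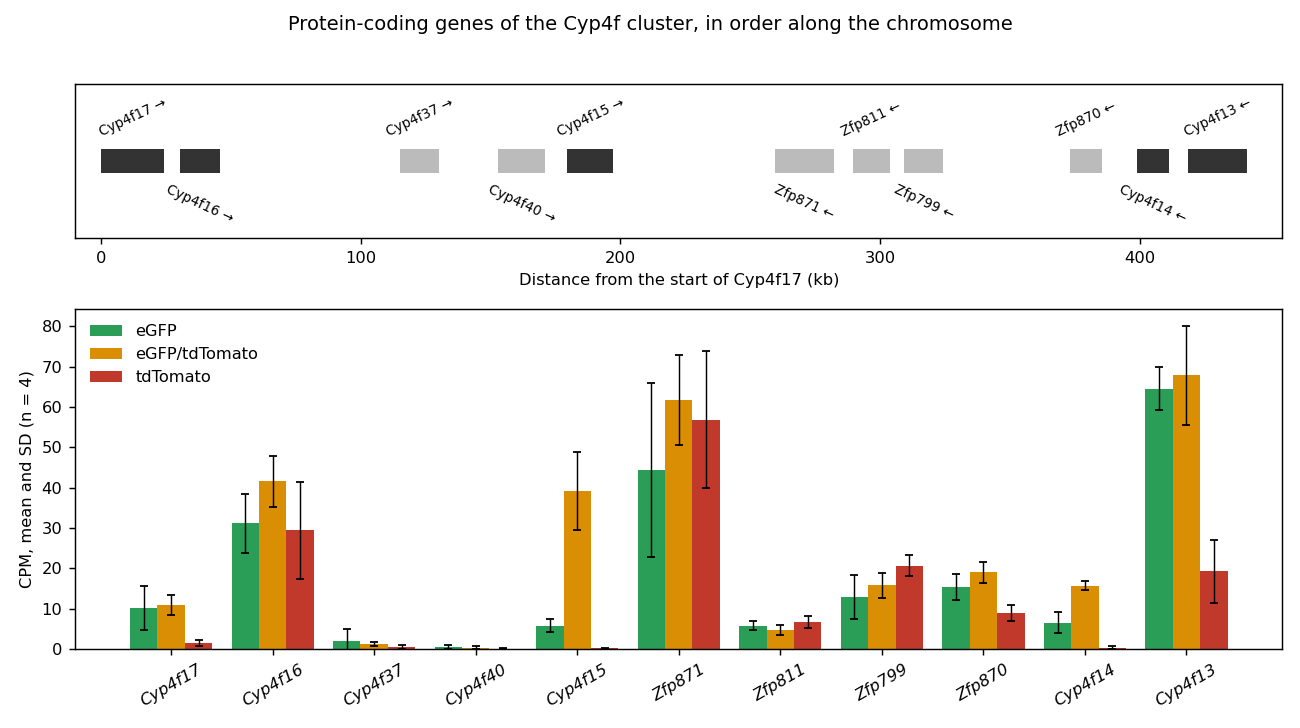
The upper panel places the protein-coding genes of the Cyp4f cluster by distance from the start of Cyp4f17 in kb, members in black, arrows giving the strand. The lower panel gives each gene's CPM per fraction (bar: mean, line: SD, 4 libraries): Cyp4f15 is highest in the eGFP/tdTomato fraction (39.2 CPM), and Cyp4f16 is at 31.3, 41.6 and 29.4 CPM in eGFP, eGFP/tdTomato and tdTomato.

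The make-up of the Cyp4f group differed by fraction. Levels were compared between genes per kilobase of exon (CPM per kb, union of all annotated exons). The 5 members summed to 33.2 ± 3.39 CPM per kb (SD, n = 4) for eGFP cells, 56.0 ± 7.92 for eGFP/tdTomato cells and 14.7 ± 5.22 for tdTomato cells. Cyp4f13 held 43.9% ± 3.02 (SD, n = 4) of the eGFP sum and 27.3% ± 2.41 of the eGFP/tdTomato sum. Cyp4f15 held 7.57% ± 1.45 of the eGFP sum and 30.4% ± 3.70 of the eGFP/tdTomato sum, and these shares did not overlap between libraries. In the tdTomato fraction Cyp4f16 held 64.5% ± 3.52 and Cyp4f13 29.0% ± 4.07, leaving 4.16% for Cyp4f17, 1.59% for Cyp4f14 and 0.713% for Cyp4f15. With the longest transcript as the length, Cyp4f13 rather than Cyp4f15 held the larger share of the eGFP/tdTomato sum (44.8% against 20.8%). In the tdTomato fraction Cyp4f16 and Cyp4f13 then held 52.3% and 43.5%.

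Among the phospholipases, Pla2g7 had the highest level in both eGFP-carrying fractions. Its product, the lipoprotein-associated phospholipase A2, is a secreted enzyme that inactivates platelet-activating factor (PAF) and cuts oxidised phospholipids. Pla2g7 measured 692, 1174, 1053 and 1000 CPM in the eGFP libraries and 2369, 1332, 1792 and 1839 CPM in the eGFP/tdTomato libraries. The tdTomato libraries had 5.35, 5.27, 4.57 and 3.51 CPM, a mean of 0.477% of the eGFP level, while the summed astrocyte markers stood at 0.730% of theirs. The 3 fractions did not overlap, and the log2 fold changes were 0.90 ± 0.22 (eGFP/tdTomato against eGFP), 8.61 ± 0.31 (eGFP/tdTomato against tdTomato) and 7.71 ± 0.29 (eGFP against tdTomato). The first of these was called, and 15 of the 24 alternatives tried lost the call, among them every single library left out other than eGFP/tdTomato replicate 2 and tdTomato replicate 5. Without eGFP replicate 1, the lowest eGFP library and the one with the fewest gene counts, the log2 fold change was 0.72. The opposite-strand gene 1700071M16Rik, which shares 319 exonic bases (10.98%) with Pla2g7, averaged 13.1 ± 6.63 CPM (SD, n = 4) over the eGFP, 25.2 ± 4.50 over the eGFP/tdTomato and 0.646 ± 0.520 over the tdTomato libraries.

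Pla2g3 separated the eGFP/tdTomato from the eGFP fraction more widely. It encodes a secreted phospholipase A2 of group III. Its CPM were 230.8, 281.4, 306.9 and 244.4 in the eGFP/tdTomato libraries, 53.6, 58.5, 86.9 and 56.9 in the eGFP libraries and 5.03, 2.14, 6.73 and 3.69 in the tdTomato libraries. The lowest eGFP/tdTomato library was thus far above the highest eGFP library. The log2 fold change was 2.05 ± 0.28, a 4.15-fold higher level, and against the tdTomato fraction 5.92 ± 0.34 for eGFP/tdTomato and 3.87 ± 0.31 for eGFP. Pla2g3 shares 401 exonic bases (8.54%) with Inpp5j on the opposite strand, and whether the counting used strand is not given in the sources used here. Inpp5j itself averaged 47.2 ± 19.2 CPM (SD, n = 4) over the eGFP, 52.4 ± 20.5 over the eGFP/tdTomato and 3.83 ± 1.34 over the tdTomato libraries, so its own means in the eGFP-carrying fractions differed by less than their spread.

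Pla2g4a ran the other way. It encodes the cytosolic, calcium-dependent phospholipase A2 that prefers phospholipids carrying arachidonic acid. Its CPM were 222.5, 202.2, 196.6 and 199.2 in the tdTomato libraries, 13.3, 10.9, 9.82 and 14.5 in the eGFP libraries and 10.5, 17.2, 11.5 and 14.7 in the eGFP/tdTomato libraries. The eGFP and eGFP/tdTomato libraries overlapped (log2 fold change 0.15 ± 0.19), and both lay below all tdTomato libraries, with log2 fold changes of -4.08 ± 0.21 for eGFP and -3.93 ± 0.21 for eGFP/tdTomato. The mean eGFP level was 5.90% of the tdTomato level and the eGFP/tdTomato level 6.55%. For the summed myelinating oligodendrocyte markers these figures were 0.663% and 1.88%. The part that oligodendrocyte RNA had in the low Pla2g4a levels was not tested. In sorted bulk samples, fewer cells of a type and less RNA per cell cannot be told apart.

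Pla2g6, the calcium-independent phospholipase A2 beta whose loss causes infantile neuroaxonal dystrophy, had smaller differences in the same direction. Its CPM were 49.1, 40.2, 84.1 and 49.9 in the tdTomato libraries, 27.2, 28.03, 32.2 and 26.2 in the eGFP/tdTomato libraries and 14.8, 11.5, 28.7 and 15.96 in the eGFP libraries. The tdTomato libraries lay above all others, and the eGFP/tdTomato and eGFP libraries overlapped through eGFP replicate 3. The log2 fold changes were -1.65 ± 0.28 (eGFP against tdTomato), -0.97 ± 0.28 (eGFP/tdTomato against tdTomato) and 0.68 ± 0.28 (eGFP/tdTomato against eGFP). The last was not called, and without eGFP replicate 3 it was 1.03 and called. The call of eGFP/tdTomato against tdTomato was lost without tdTomato replicate 3 (-0.71) and without the 3 libraries numbered 5 (-0.99). That of eGFP against tdTomato was kept in all 24 alternatives.

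Pla2g16, an acyltransferase with phospholipase A1 and A2 activity that is best known from fat tissue, differed least among the phospholipases. Its CPM were 83.4, 82.1, 99.7 and 93.7 in the eGFP/tdTomato libraries, 31.9, 71.5, 79.6 and 55.8 in the eGFP libraries and 56.9, 40.5, 62.0 and 49.4 in the tdTomato libraries. The eGFP/tdTomato libraries lay above all others, while the eGFP and tdTomato libraries overlapped. The log2 fold changes were 0.59 ± 0.24 against the eGFP fraction, which was not called, and 0.78 ± 0.24 against the tdTomato fraction, which was. The latter call was lost in 9 of the 24 alternatives, among them without eGFP/tdTomato replicate 3 (0.44) or 5, tdTomato replicate 2 or 5, or eGFP replicate 5.

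**Figure D2:**
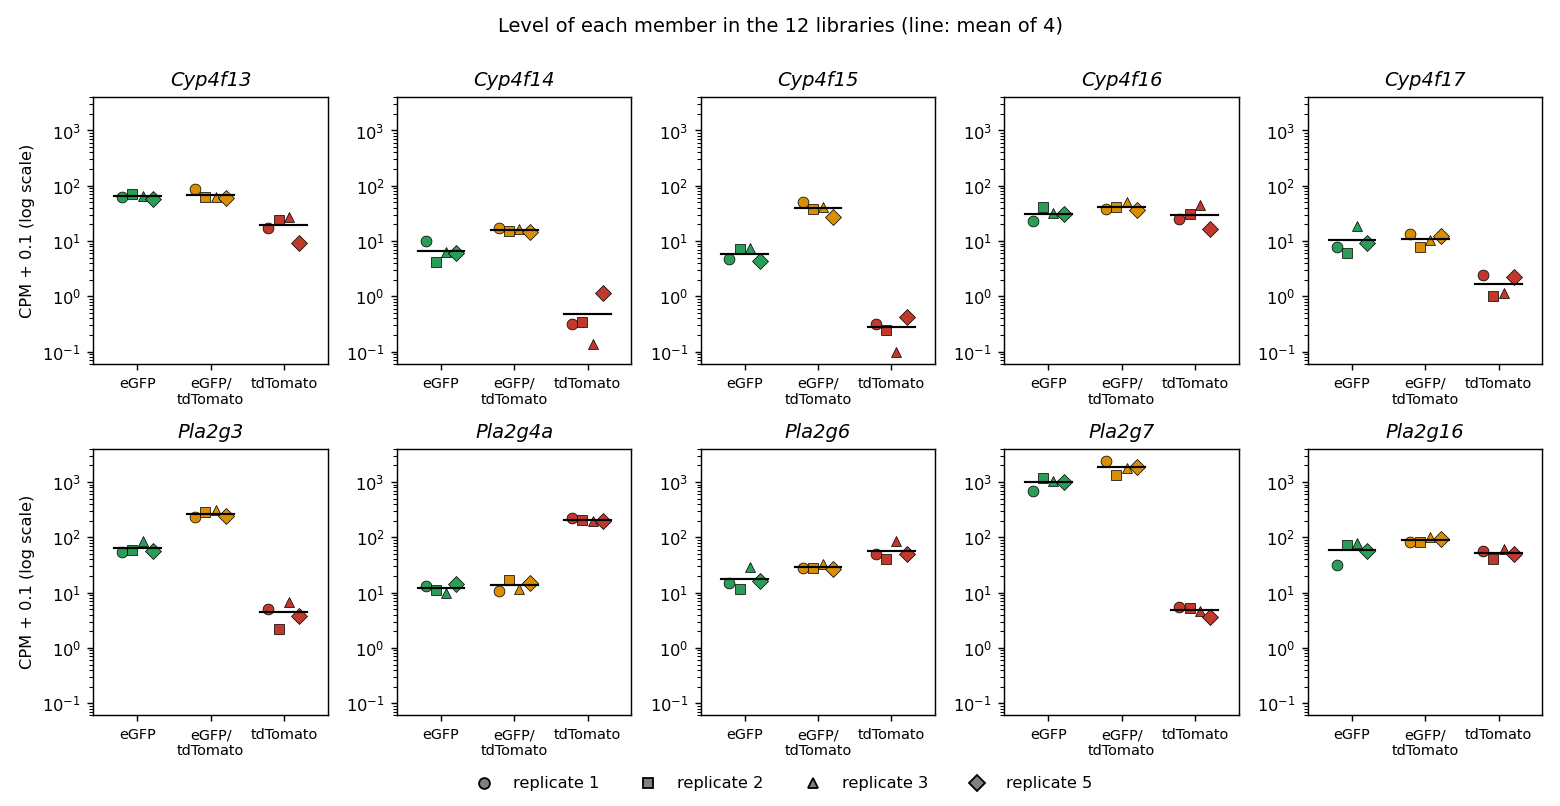
Each panel gives the level of 1 member in the 12 libraries as CPM + 0.1 on a log axis, by fraction, with a symbol per replicate number and a line at the mean of 4. Pla2g7 spans 3.51 to 2369 CPM, Pla2g4a is high in the tdTomato libraries (196.6 to 222.5 CPM), and the fractions of Cyp4f16 overlap.

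Per kilobase of exon, the phospholipase group was dominated by a different member on each side. The 5 genes summed to 365.4 ± 74.9 CPM per kb (SD, n = 4) in the eGFP, 709.1 ± 141.0 in the eGFP/tdTomato and 53.1 ± 5.16 in the tdTomato fraction. Pla2g7 held 92.2% ± 1.35 (SD, n = 4) of the sum for eGFP cells, 88.6% ± 3.05 for eGFP/tdTomato cells and 3.05% ± 0.629 for tdTomato cells. The share of Pla2g3 was 3.80% ± 0.846 in the eGFP and 8.32% ± 2.40 in the eGFP/tdTomato fraction, without overlap between libraries. In the tdTomato fraction Pla2g4a held 60.9% ± 6.08, Pla2g6 19.1% ± 4.93 and Pla2g16 15.3% ± 1.39. Each of these 3 held at most 2.49% on average in the other fractions.

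**Figure D3:**
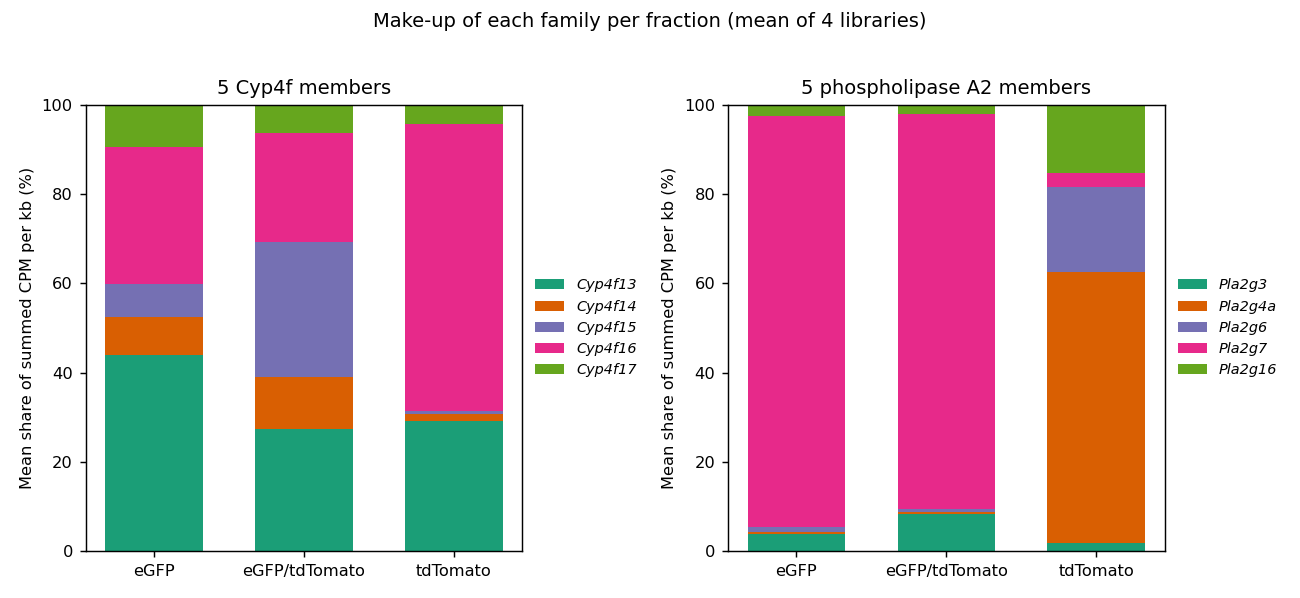
Stacked bars give the mean share (%) of each member in the summed CPM per kb of its family, by fraction, as the mean of 4 libraries. Cyp4f15 grows from 7.57% in eGFP to 30.4% in eGFP/tdTomato, and in the tdTomato fraction Cyp4f16 (64.5%) and Pla2g4a (60.9%) hold the largest parts. With the longest transcript as the length, not drawn, Cyp4f15 goes from 4.42% to 20.8% and Cyp4f16 holds 52.3% in tdTomato.

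Across all 10 members, the 3 comparisons share libraries and are given side by side. Between the eGFP/tdTomato and eGFP fractions, 3 members were called higher (edgeR, adjusted p under 0.05), where 0.814% of the 29361 genes tested were called higher. No member was called lower, also by DESeq2, by limma-voom or at an unadjusted p under 0.05 (0 each), against 1.67% of all genes. Between eGFP/tdTomato and tdTomato, 7 members were called higher and 2 lower, where 16.8% and 12.4% of all genes were. Between eGFP and tdTomato, 6 were called higher and 2 lower, where 20.4% and 14.9% of all genes were. The members were picked on these contrasts, so nothing is read from these counts. The median log2 fold change of the members was 0.64, 2.30 and 2.21 in the 3 comparisons, and of all genes -0.02, 0.70 and 0.79. With size factors of the DESeq2 method the all-gene medians were -0.08, 0.57 and 0.73, a shift of 0.13 in the middle comparison. The medians against tdTomato moved further with the genes and libraries used. They were 0.12 for eGFP/tdTomato and 0.18 for eGFP among genes with at least 1 CPM in 4 libraries, 0.25 and 0.34 with only the 2 fractions compared, and 0.26 and 0.10 with the covariate for reads outside genes.

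**Figure D4:**
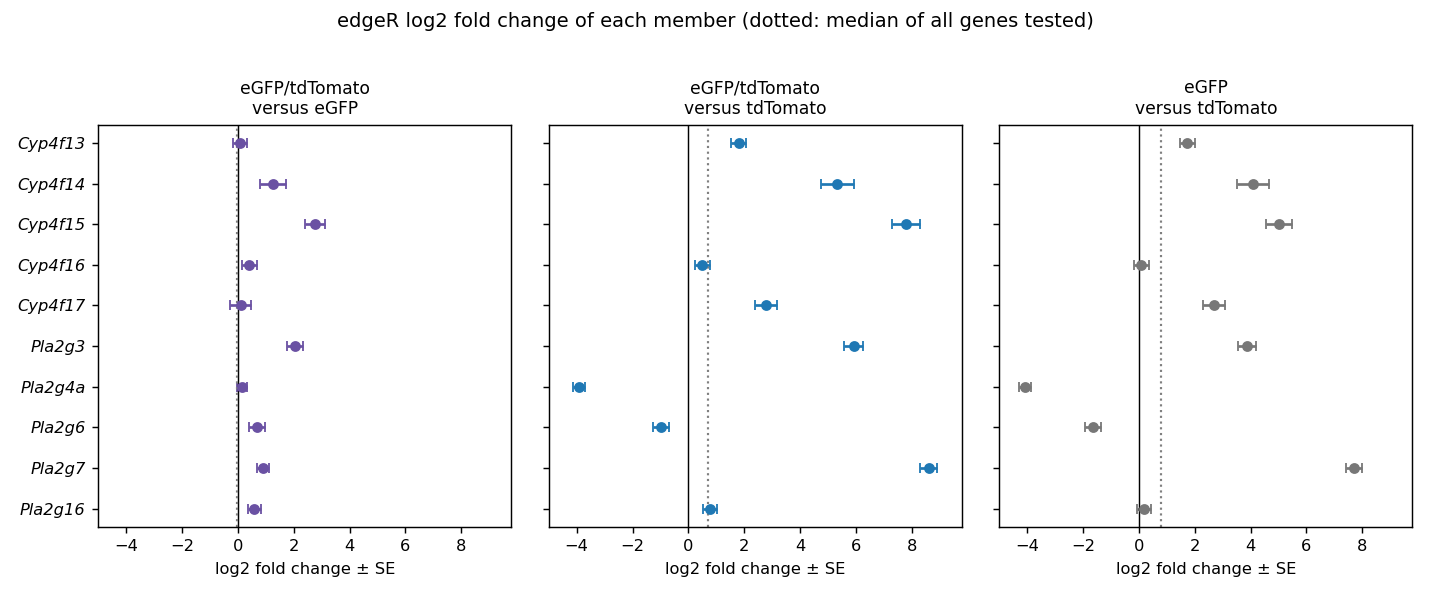
Points give the edgeR log2 fold change of each member with its SE (line) in the 3 comparisons, the solid line marks 0 and the dotted line the median of all 29361 genes tested. Cyp4f15 (2.75) and Pla2g3 (2.05) lie farthest from 0 between eGFP/tdTomato and eGFP, and Pla2g4a and Pla2g6 lie left of 0 in both comparisons with tdTomato.

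The genes with the most similar profiles were sought over the 12 libraries, by Pearson's r of log2(CPM + 0.5) among 11120 protein-coding genes with a mean of at least 5 CPM. The libraries fall into 3 fractions, so a high r mostly describes a shared order of fractions and is given with no test. Pla2g7 was most like Slc4a4 (r = 0.999), Apoe (0.998) and Slc1a2 (0.998), which encode a bicarbonate transporter, apolipoprotein E and the main astrocyte glutamate transporter. Pla2g3 was most like Lgr6 (0.990), Cyp7b1 (0.989) and Prss35 (0.986), and Cyp4f15 most like Cth (0.994), Fgf1 (0.990) and Trhr (0.987). All 6 of these genes had their highest mean in the eGFP/tdTomato fraction, from 21.6 CPM for Trhr to 160.2 CPM for Prss35, and at least 2 times lower means in the eGFP fraction. Cyp4f14 was most like Ltbp1 (0.979), Rasgrf1 (0.976) and Trim30d (0.975). The nearest gene to Cyp4f13 was Soat1 (0.98), an enzyme that esterifies cholesterol, followed by Pex11a (0.978) and Pyroxd2 (0.975). Cyp4f17 was most like Parp3 (0.976), Dgki (0.971) and Fgf2 (0.970). On the tdTomato side, Pla2g4a was most like Slc24a2 (0.996), Ypel2 (0.996) and Sytl2 (0.994), and Pla2g6 most like Tmem229b (0.977), Brap (0.972) and Cpeb3 (0.971). The members with the flattest profiles had lower values, with Hoxc4 (0.950), Ikbkb (0.949) and Traf2 (0.942) for Cyp4f16 and Ak3 (0.964), Rab9 (0.952) and Smox (0.951) for Pla2g16.

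The surrounding pathway was described with 9 lists of 127 genes, of which 125 were matched and 120 tested. The lists follow the function of the genes but were drawn up with earlier results of these data known, so the adjusted p-values of their genes are no independent evidence. Between eGFP/tdTomato and eGFP, 4 of the 120 genes were called higher (Acsl6, Cyp2j6, Lpcat1 and Mboat2) and 5 lower (Ephx4, Hrasls, Lpcat2, Ptafr and Ptgds), and with single libraries left out these counts ran from 1 to 5 and from 1 to 6. Genes outside the naming rule, such as Lpcat1, Mboat2, Ephx4, Ptgds, Ptgs2, Ptges3, Plaa and Pafah2, were named after their values were seen. Against the tdTomato fraction, 31 were higher and 18 lower in eGFP/tdTomato, and 35 higher and 18 lower in eGFP, with 23 rather than 35 higher without eGFP replicate 5. The share of listed genes called can be read against the all-gene shares given above.

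Of 13 other Cyp4 genes tested, only Cyp4v3, a fatty acid omega-hydroxylase linked to a retinal dystrophy, reached 5 CPM in any fraction. Cyp4v3 stood at 17.7 to 33.8 CPM in the eGFP, 18.5 to 30.7 in the eGFP/tdTomato and 0.542 to 0.664 in the tdTomato libraries. It was higher than in the tdTomato fraction by 5.42 ± 0.28 (log2, SE) in eGFP/tdTomato (edgeR, adjusted p = 1.59e-09) and by 5.26 ± 0.28 in eGFP (adjusted p = 1.8e-09). It was the only gene of its list that edgeR called in either comparison with all libraries. DESeq2 and limma-voom each called 3 of the 13 higher in eGFP than in tdTomato, and edgeR called 4 without tdTomato replicate 5 and 2 without eGFP replicate 3. In eGFP/tdTomato edgeR called 2 higher without tdTomato replicate 5. Between eGFP/tdTomato and eGFP none of the 13 was called by edgeR, DESeq2 or limma-voom, and 0 had an unadjusted p under 0.05.

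Of 6 electron donors and dehydrogenases that serve these enzymes, edgeR called 1 higher and 1 lower in each eGFP-carrying fraction than in tdTomato. Without eGFP replicate 1 the genes called lower numbered 3 in eGFP/tdTomato and 2 in eGFP. In eGFP 2 were also called lower by DESeq2, by limma-voom and without eGFP replicate 3 or 5, eGFP/tdTomato replicate 3 or tdTomato replicate 5. Cyb5r3, which reduces cytochrome b5, was higher in eGFP/tdTomato (290.4 ± 27.9 CPM, SD, n = 4) than in tdTomato (119.5 ± 22.7), by a log2 fold change of 1.28 ± 0.18 (edgeR, adjusted p = 3.62e-05). Cyb5a, cytochrome b5 itself, was lower (243.9 ± 22.7 against 480.7 ± 54.8 CPM, log2 fold change -0.98 ± 0.21, edgeR, adjusted p = 0.00216). None of the 6 was called between eGFP/tdTomato and eGFP by edgeR, DESeq2 or limma-voom, or had an unadjusted p under 0.05 (0 genes).

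The list of other phospholipases A2 and PAF acetylhydrolases had 23 genes tested. In eGFP/tdTomato 7 were higher and 3 lower than in tdTomato, and in eGFP 6 were higher and 2 lower. Single libraries moved these counts. The 7 fell to 4 without eGFP replicate 5, eGFP/tdTomato replicate 2 or tdTomato replicate 1 and to 3 without eGFP/tdTomato replicate 3. The 3 lower genes fell to 1 without eGFP/tdTomato replicate 1 or 2 or tdTomato replicate 1, 2 or 3. The 6 higher in eGFP fell to 3 without eGFP replicate 1 or eGFP/tdTomato replicate 3 and to 2 without eGFP replicate 5. Prdx6, a peroxiredoxin with phospholipase A2 activity, was higher in eGFP/tdTomato (1271 ± 159 CPM) than in tdTomato (270.0 ± 37.8), with a log2 fold change of 2.23 ± 0.23 (edgeR, adjusted p = 1.46e-06). Pafah1b2, a catalytic subunit of the intracellular PAF acetylhydrolase, was lower (116.3 ± 8.74 against 338.5 ± 59.4 CPM, -1.54 ± 0.21, edgeR, adjusted p = 3.09e-05). Plaa, an activator of phospholipase A2, was lower in eGFP (-0.89, edgeR, adjusted p = 0.000705) and in eGFP/tdTomato (-0.52, adjusted p = 0.0322), and the latter call was lost in 10 of 24 alternatives, among them without eGFP/tdTomato replicate 1, 2 or 5 or tdTomato replicate 1, 2 or 3. Hrasls was lower in eGFP/tdTomato (-1.06, edgeR, adjusted p = 0.0464), a call lost in 9 of 24, among them limma-voom (0.0569) and without eGFP/tdTomato replicate 1 or 2 or tdTomato replicate 1, 2 or 3. Pla2g7 and Pafah1b2, which both remove the acetyl group of PAF, were thus high in opposite fractions. Pafah2, another PAF acetylhydrolase, was on the side of Pla2g7, higher in eGFP/tdTomato than in tdTomato (0.85, edgeR, adjusted p = 0.00576). That call was lost without eGFP/tdTomato replicate 3 (0.149) or eGFP replicate 5 (0.0581). Pla2g15, the lysosomal phospholipase A2, was higher in eGFP/tdTomato (15.4 ± 3.51 CPM) than in tdTomato (6.85 ± 2.35 CPM, edgeR, adjusted p = 0.0124), a call lost without eGFP/tdTomato replicate 3 (0.141) or tdTomato replicate 1 (0.0507). Hrasls, an acyltransferase related to Pla2g16, was the 1 gene of the list called between eGFP/tdTomato (1.62 to 4.04 CPM) and eGFP (4.07 to 12.3 CPM), at -1.79 ± 0.38 (edgeR, adjusted p = 0.0173). That call was lost without eGFP replicate 2 (adjusted p = 0.0762) and without eGFP/tdTomato replicate 1, 2 or 3 (0.0613 to 0.0647).

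Reacylation genes divided between the fractions. Of 13 acyl-CoA synthetases and lysophospholipid acyltransferases tested, 6 were higher and 6 lower in eGFP/tdTomato than in tdTomato, and 6 higher and 7 lower in eGFP. Acsl1, which activates long-chain fatty acids, was at 10.7 ± 0.995 CPM in eGFP/tdTomato and 367.6 ± 70.0 in tdTomato (log2 fold change -5.10 ± 0.23, edgeR, adjusted p = 5.23e-10). Acsl6, a synthetase that favours polyunsaturated fatty acids, was at 316.8 ± 55.5 and 9.49 ± 2.86 CPM (5.06 ± 0.35, edgeR, adjusted p = 2.02e-08). Acsl6 was also higher in eGFP/tdTomato (257.7 to 383.5 CPM) than in eGFP (67.7 to 202.9 CPM), by 1.19 ± 0.29 (edgeR, adjusted p = 0.0465), a call lost in 15 of 24 alternatives. It held only without eGFP replicate 3 or tdTomato replicate 5 when single libraries were left out. Mboat1, a lysophospholipid acyltransferase, was higher in eGFP than in tdTomato by 2.58 ± 0.22 (edgeR, adjusted p = 2.02e-07). Lpcat1 and Mboat2, lysophospholipid acyltransferases too, were higher in eGFP/tdTomato than in eGFP, by 0.91 and 0.76 (edgeR, adjusted p = 0.0173 and 0.0475), with 17 and 8 of the 24 alternatives keeping the call. Lpcat1 lost it without eGFP replicate 5 or eGFP/tdTomato replicate 3 or 5, and Mboat2 already without eGFP replicate 1 (0.131). Lpcat2, which makes PAF, was highest in tdTomato (19.5 ± 4.20 CPM) and lower in eGFP/tdTomato (2.58 ± 0.871 CPM) than in eGFP (5.96 ± 1.77 CPM, -1.21 ± 0.30, edgeR, adjusted p = 0.046). The last of these calls was lost in 15 of 24 alternatives, among them limma-voom (0.0984) and every single library left out other than eGFP replicates 1 and 3.

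The enzymes of 2-arachidonoylglycerol and anandamide, lipids that also carry arachidonic acid, had 7 genes tested, with 3 higher and 2 lower in eGFP/tdTomato than in tdTomato. Faah, which degrades anandamide, was at 5.33 ± 0.872 CPM in eGFP/tdTomato and 91.6 ± 21.6 in tdTomato (-4.10 ± 0.31, edgeR, adjusted p = 5.72e-08). Mgll, which frees arachidonic acid from 2-arachidonoylglycerol, was at 169.4 ± 41.1 and 387.0 ± 93.1 CPM (-1.19 ± 0.25, edgeR, adjusted p = 0.00185). Dagla, which makes 2-arachidonoylglycerol, was higher in eGFP/tdTomato by 2.23 ± 0.48 (edgeR, adjusted p = 0.00207), and so were Abhd6 by 1.18 ± 0.19 (edgeR, adjusted p = 0.000159) and Daglb by 0.90 (edgeR, adjusted p = 0.018). The Daglb call was lost without eGFP/tdTomato replicate 3, tdTomato replicate 1 or eGFP replicate 5 (0.0769 to 0.227). No gene of this list was called between eGFP/tdTomato and eGFP by edgeR or limma-voom with all libraries. DESeq2 called 1 higher, as edgeR did without eGFP replicate 3, and 3 genes were higher and 1 lower at an unadjusted p under 0.05.

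In the cyclooxygenase branch, 12 genes were tested, with 5 higher and 1 lower in eGFP/tdTomato than in tdTomato and 8 higher and 1 lower in eGFP. Ptgs1, the constitutive cyclooxygenase, was at 13.9 ± 6.98 CPM in eGFP, 9.68 ± 5.82 in eGFP/tdTomato and 0.906 ± 0.50 in tdTomato, and eGFP exceeded tdTomato by 3.93 ± 0.58 (edgeR, adjusted p = 5.98e-05). Ptges, a prostaglandin E synthase, and the prostaglandin-degrading Hpgd and Ptgr1 were likewise higher in eGFP than in tdTomato, by 4.07 ± 0.39, 5.36 ± 0.51 and 5.02 ± 0.29 (edgeR, adjusted p = 7.68e-07, 5.88e-07 and 4.1e-09). Ptgs2, the inducible cyclooxygenase, completed the 5 genes higher in eGFP/tdTomato than in tdTomato (2.41, edgeR, adjusted p = 0.000123), and Ptges3 was the 1 that was lower (-0.71, adjusted p = 0.00548). The number lower was 2 in eGFP/tdTomato without eGFP replicate 1, and 0 in eGFP without tdTomato replicate 2 or 3. The 8 higher in eGFP, of which limma-voom called 6, also included Hpgds, Ptgds and Tbxas1. Hpgds and Tbxas1 lost the call without eGFP replicate 5 (0.143 and 0.247), the library with the highest microglial marker sum. Tbxas1 kept it in 9 of 24 alternatives. The part of microglial RNA in these 2 calls was not tested. Ptgds, a prostaglandin D synthase, was lower in eGFP/tdTomato than in eGFP (-3.29, edgeR, adjusted p = 0.00721), a call that limma-voom did not make (0.0587). Its eGFP libraries had 4.46, 50.3, 6.17 and 17.7 CPM, and the highest, replicate 2, also had the highest sum of the 10 mural and fibroblast markers (2115 CPM against 794.2 to 1285 in the other 3). None of these markers was at 0 throughout, and their part in the Ptgds difference was not tested.

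The lipoxygenase branch had 13 genes tested, and only 3 reached 5 CPM in a fraction. Alox5, which starts leukotriene synthesis, stood at 107.5, 116.7, 149.2 and 78.3 CPM in the tdTomato libraries and at 2.97 to 3.39 CPM in the eGFP/tdTomato libraries. The eGFP libraries had 7.02, 2.45, 0.565 and 14.2 CPM, with the highest value in replicate 5, the library with the highest microglial marker sum. The part of microglial RNA in that value was not tested. Alox5 was lower in eGFP/tdTomato than in tdTomato (log2 fold change -5.13 ± 0.66, edgeR, adjusted p = 1.75e-05). Lta4h, which turns leukotriene A4 into leukotriene B4, was higher in eGFP/tdTomato than in tdTomato (74.0 ± 9.60 against 41.0 ± 9.05 CPM, 0.85 ± 0.19, edgeR, adjusted p = 0.00291), and this call was lost without eGFP/tdTomato replicate 3 (0.0966). Alox8 and Ggt5 were the other 2 genes of the branch higher in eGFP/tdTomato (2.83 and 3.79, edgeR, adjusted p = 0.000537 and 0.00381), and without tdTomato replicate 5 the higher genes numbered 6. In eGFP 4 genes were higher than in tdTomato (2 to 8 with single libraries left out) and 1 lower. Alox5ap ran opposite to Alox5, at 0.677 to 5.47 CPM in eGFP and 0.181 to 0.553 in tdTomato (2.79, edgeR, adjusted p = 0.00898). Its call was lost without eGFP replicate 5 (0.142), its highest library. Of the Cyp4f members, a family that degrades leukotriene B4, Cyp4f14, Cyp4f15 and Cyp4f17 averaged 0.383, 0.176 and 1.61 CPM in tdTomato, where Alox5 was high. Cyp4f13 and Cyp4f16 averaged 19.3 and 29.4 CPM there. In eGFP, where Alox5 was lower, Cyp4f14 and Cyp4f15 averaged 6.60 and 5.82 CPM. This is a description of these libraries. None of the 13 genes was called between eGFP/tdTomato and eGFP by edgeR, DESeq2 or limma-voom with all libraries, 1 was lower at an unadjusted p under 0.05, and edgeR called 1 lower without eGFP replicate 3.

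Epoxygenases and epoxide hydrolases form the P450 route beside omega-hydroxylation, and 20 of them were tested. In each eGFP-carrying fraction 3 were higher and 3 lower than in tdTomato. Without tdTomato replicate 5 the higher genes numbered 7 in each, and without eGFP replicate 3 they numbered 6 in eGFP. The higher genes were Ephx2 and Cyp2j9 in both, with Ephx1 in eGFP/tdTomato and Cyp2c55 in eGFP, and the lower genes Cyp2j6, Cyp2j12 and Ephx4 in both. The call of Ephx1 was kept in 18 of 24 alternatives and that of Cyp2c55 in only 7 of 23. Both were lost without eGFP replicate 1 (0.0594 and 0.145), and Cyp2c55 also with limma-voom (0.111). Ephx2, the soluble epoxide hydrolase, was at 65.9 ± 7.59 CPM in eGFP/tdTomato and 1.03 ± 0.704 in tdTomato (5.99 ± 0.43, edgeR, adjusted p = 3.39e-08). The Cyp2j epoxygenases differed among themselves. Cyp2j9 was higher in eGFP/tdTomato than in tdTomato by 2.82 ± 0.22 (edgeR, adjusted p = 7.76e-08), while Cyp2j12 was lower, at -3.84 ± 0.66 (edgeR, adjusted p = 0.000278). Cyp2j6 measured 184.4 to 273.2 CPM in the tdTomato, 82.2 to 104.2 in the eGFP/tdTomato and 41.1 to 46.6 in the eGFP libraries, and the fractions did not overlap. It was higher in eGFP/tdTomato than in eGFP by 1.03 ± 0.17 (edgeR, adjusted p = 0.00245), and 23 of 24 alternatives kept that call. Ephx4 was lower in eGFP/tdTomato than in eGFP (1.33 to 2.71 against 3.54 to 5.58 CPM, -1.39, edgeR, adjusted p = 0.0148), a call lost without eGFP/tdTomato replicate 1, 2 or 5 (0.0559 to 0.0628).

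Of 13 receptors for eicosanoids and PAF tested, only Ptafr, the PAF receptor, reached a mean of 5 CPM in a fraction. Ptafr was at 31.6 CPM in eGFP replicate 5 and at 3.57 to 5.26 in the other eGFP libraries, and at 0.301 to 2.31 in the remaining 8. It was lower in eGFP/tdTomato than in eGFP, at -3.01 ± 0.73 (edgeR, adjusted p = 0.0399), and without eGFP replicate 5 it was -1.69 and not called (adjusted p = 0.299). The call was also lost without any single eGFP/tdTomato library and without tdTomato replicate 1. The summed microglial markers were 1130 CPM in that library and 94.8 to 255.8 in the other eGFP libraries, with none of the 12 markers at 0 throughout, and their part in the Ptafr difference was not tested. Against tdTomato, the prostaglandin receptors Ptgfr and Ptger3 were higher in eGFP/tdTomato (3.96 and 2.02, edgeR, adjusted p = 0.000504 and 0.048) and Ptger1 lower (-2.94, adjusted p = 0.022), all under 5 CPM on average in each fraction. All but 4 of 23 alternatives lost the call of Ptger3, and Ptger1 lost its call without eGFP/tdTomato replicate 1, 2 or 5 or tdTomato replicate 3 (0.051 to 0.0661).

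**Figure D5:**
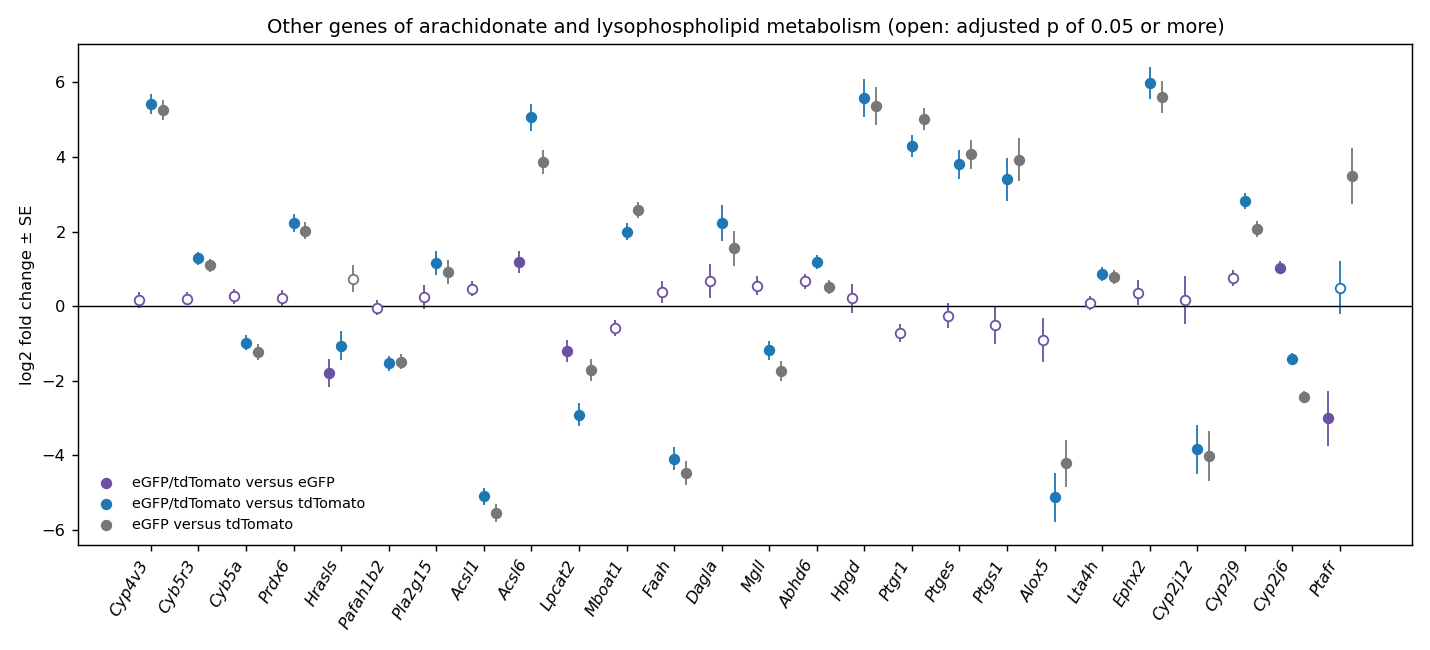
Points give the edgeR log2 fold change with its SE (line) of the named genes of the pathway lists in the 3 comparisons, filled where the adjusted p was under 0.05 and open otherwise. Most filled points belong to the comparisons with tdTomato, from Ephx2 (5.99) to Acsl1 (-5.56), and between eGFP/tdTomato and eGFP Acsl6, Cyp2j6, Hrasls, Lpcat2 and Ptafr are the filled ones.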

How the data were processed

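Total RNA of 12 libraries was sequenced on a BGISEQ-500, per the labels' protocols. Per the submitters' processing notes, STAR, HTSeq and the build GRCm38 (mm10) were used, and the authors deposited raw counts per Ensembl gene, 1 table per library. Versions, annotation release and strand mode are not given in the sources used here. Each table holds 53465 genes and 5 lines that name no gene, which were left out of all library sizes and tests. The line for reads outside genes holds 21.2 to 57.1% of the reads. Symbols, positions and exon lengths came from GENCODE M21, which holds 53360 of the identifiers (99.8%). Mitochondrial genes were listed at 0. No libraries were identical.

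Counts were tested with edgeR 4.0.16 in R 4.3.3 (robust quasi-likelihood F-test after filterByExpr by fraction, with TMM factors), with all 12 libraries in 1 fit, 3 comparisons and Benjamini-Hochberg adjustment over the 29361 genes that passed. Called means an adjusted p under 0.05. The script was tested on simulated data for the comparison of eGFP/tdTomato with eGFP only, not for those with tdTomato. The labels call the libraries biological replicates but do not say how many animals each holds, so p-values reflect only how far these libraries spread. DESeq2 1.42.0, limma-voom (limma 3.58.1), other size factors, filters, a covariate for reads outside genes, a block, and leaving out libraries were tried as alternatives, 24 in all.

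The members and all gene lists were chosen with earlier results of these data known. Text names all 10 members and, from each pathway list, up to 4 called genes with the largest fold change and at least 5 CPM in their higher fraction. Some called genes outside this rule were named after their values were seen. For each member it also names the 3 protein-coding genes most like it, among genes with a mean of at least 5 CPM. Sequences came from RefSeq (GRCm38.p6) and GENCODE M21.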

Additional observations from a re-analysis of the deposited data

Results flagged for a closer look

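Within the 30 groups of 4 libraries (10 members in 3 fractions), 2 held a library far from its neighbours by Dixon's test at the 95% level, and chance alone flags about 1 group in 20. Cyp4f13 was at 86.1 CPM in eGFP/tdTomato replicate 1 and at 59.0 to 63.3 CPM in the other 3 libraries of that fraction, a gap of 0.841 of the range. Pla2g3 was at 86.9 CPM in eGFP replicate 3 and at 53.6 to 58.5 CPM in the other 3 eGFP libraries, a gap of 0.853 of the range.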

How the results depend on the processing

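Of the member fold changes under 24 alternatives, 683 moved by less than the spread between replicates, 37 moved by more and 0 reversed among called values. The log2 fold changes of Cyp4f15 and Pla2g3 between eGFP/tdTomato and eGFP ran from 2.51 to 2.91 and from 1.92 to 2.25, a description of genes chosen on this contrast. The cause of the other changes was not tested. Members called lower in eGFP/tdTomato than in tdTomato fell from 2 to 1 without the 3 libraries numbered 5, and were 1 to 2 when libraries were left out singly. Pathway genes called higher in eGFP/tdTomato than in eGFP numbered 4, and 2 with only these fractions in the fit, 7 with the covariate, 1, 1, 0 and 1 without the libraries numbered 1, 2, 3 and 5, and 1 to 5 with single libraries left out. Those called lower numbered 5, and 2 with limma-voom, 2 with only these fractions, 1, 0 and 0 without the libraries numbered 1, 2 and 5, and 1 to 6 with single libraries left out. Between eGFP and tdTomato, 35 were called higher, and 23 to 47 with single libraries left out, fewest without eGFP replicate 5. With a replicate block, 7 pathway genes rather than 4 were called higher in eGFP/tdTomato than in eGFP, and Pla2g6 was called there (0.77). The numbers were not taken as pairs: correlations of same-numbered libraries ran from -0.239 to 0.661, and 4 of 12 libraries correlated best with their own number. Cyp4f14 and Cyp4f15 in tdTomato rest on 1 to 28 and 0 to 9 counts per library, which limits their fold changes.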

Other observations

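Pla2g3, Pla2g6 and Pla2g16 had their highest level in the library numbered 3 in each of the 3 fractions, 3 of the 10 members. Of all genes tested, 11.09% were highest in the libraries numbered 3 in each fraction, and 1.22 to 1.71% in those of any other number. The libraries numbered 3 also had the lowest share of reads outside genes in each fraction (29.1, 25.6 and 21.2% in eGFP, eGFP/tdTomato and tdTomato). The labels do not say what a set number shares.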
